A study of Mus musculus with 6 samples.

Results

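Cells detect stray nucleic acid with a small set of receptors that lead to type I interferon, and 10 genes of that system were followed here in mouse cortex. They are the RNA receptors Ddx58 (RIG-I), Ifih1 (MDA5) and Dhx58 (LGP2) with their adaptor Mavs, the DNA sensor Mb21d1 (cGAS) with its adaptor Tmem173 (STING), the Z-form nucleic acid sensor Zbp1, the endosomal receptors Tlr3 and Tlr9, and the kinase Tbk1. They were chosen by name, as sensors and adaptors that can detect mitochondrial nucleic acids, through every probe set annotated to that gene alone. All 10 genes were measured, by 20 of the 45037 probe sets tested, out of 18193 named genes. The platform annotation lists Mb21d1 as Cgas and Tmem173 as Sting1.

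RIG-I and MDA5 bind double-stranded RNA in the cytosol and engage MAVS on the outer mitochondrial membrane, while cGAS binds DNA and makes a cyclic dinucleotide that activates STING. Both routes, and TLR3 from the endosome, meet at TBK1, which phosphorylates interferon regulatory factors that switch on interferon genes. Interferon then induces many genes, among them several of the sensors, and DNA or RNA released from mitochondria can be a ligand of the pathway.

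The samples were cortex of HtrA2 knockout mice and of wild type (WT) littermates at postnatal day 29, with 3 arrays for each genotype. HtrA2 is a serine protease that resides between the inner and outer mitochondrial membranes. The labels name no treatment, and they give neither the strain nor the design of the knockout allele. Nothing in them says that each array came from its own animal, so the spread behind each p-value may be partly technical. Sex-linked transcripts, given at the end, differed between arrays within each group, so neither group came from a single animal. Levels are RMA values on the log2 scale, n = 3 in each group, ± gives the standard error of a log2 difference unless it is called SD, and differences are HtrA2 KO minus WT. Whole cortex was measured, so fewer cells of a type and less RNA per cell cannot be told apart.

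One of the 2 probe sets of Htra2 fell by 2.27 ± 0.17, with 6.65 ± 0.374 in HtrA2 KO and 8.92 ± 0.0833 in WT (SD), and the other rose by 1.11 ± 0.08 (limma adjusted p = 0.00227 and 0.00169); where either lies relative to the deletion is not given. Neuron markers averaged 11.84 to 11.92 in HtrA2 KO and 12.07 to 12.10 in WT arrays, far above the array medians of 6.40 to 6.45, as a check of the tissue. HtrA2 KO replicate 2 stood apart: its mean correlation with the other arrays of its group was 0.993, against 0.995 for each of the other KO arrays and 0.997 or 0.998 for the WT arrays. Its SD over all probe sets was also the lowest, 2.34 against 2.39 to 2.41 in the other arrays. Results that rest on HtrA2 KO replicate 2 are given with and without it, for the cell type markers as counts over all their lists.

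No sensor gene passed the test. By limma, adjusted by Benjamini-Hochberg across the 45037 probe sets, 0 of the 20 probe sets and 0 of the 10 genes had an adjusted p under 0.05, where 1.77% of all probe sets and 3.3% of all genes did. At an unadjusted p under 0.05 the count was 4 probe sets higher and 1 lower in HtrA2 KO, against 8.33% and 8.55% of all probe sets. The 4 were the 3 probe sets of Ddx58 and the 1 of Ifih1, and the fifth was 1 of Tbk1. In 5 probe sets every HtrA2 KO array lay above every WT array and in 3 every one lay below, where 11.6% of all probe sets did so in each direction. The median log2 difference was 0.006 over the 20 probe sets and 0.005 over all, with 10 means higher and 10 lower.

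**Figure D1:**
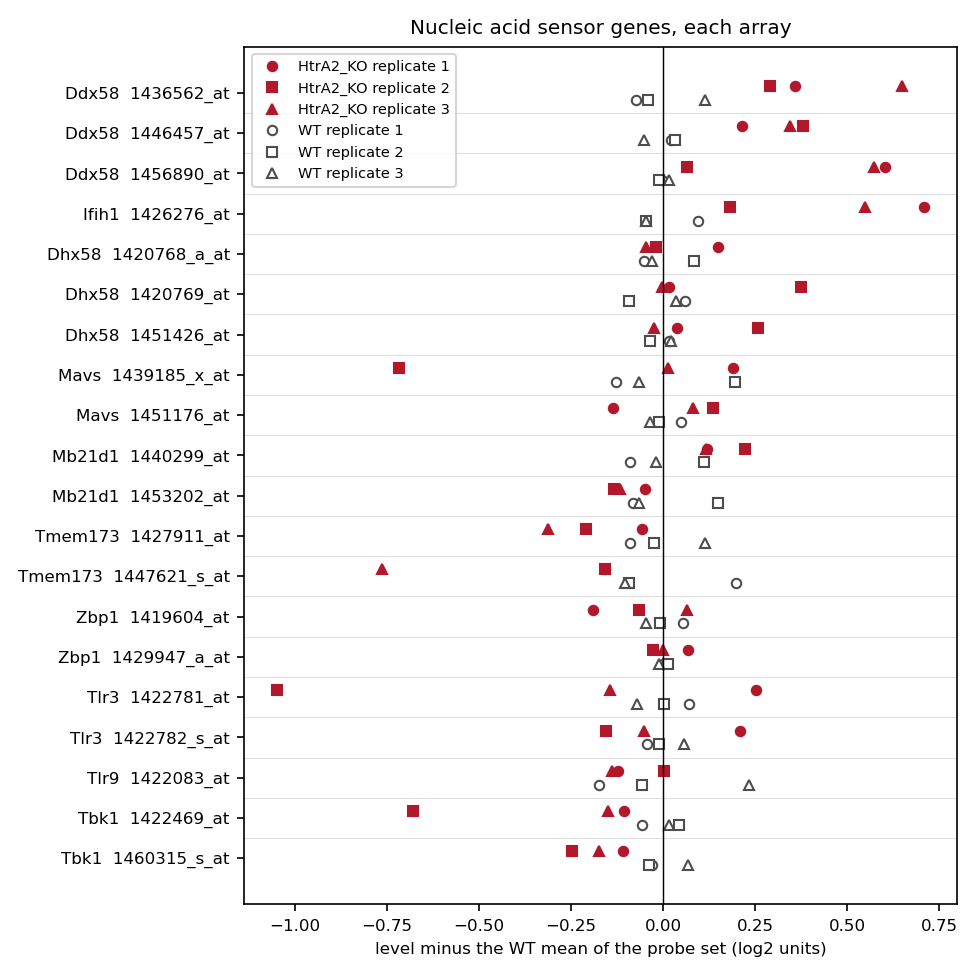
Level of each of the 20 probe sets of the 10 sensor genes in each array, as log2 units from the WT mean of that probe set; filled symbols are HtrA2 KO arrays, open symbols WT arrays, and the shape gives the replicate number. The HtrA2 KO arrays lie above all WT arrays at the 3 probe sets of Ddx58, at Ifih1 and at 1 probe set of Mb21d1. They lie below all WT arrays at both probe sets of Tbk1 and at 1 of Tmem173. The far left points at Mavs, Tlr3 and Tbk1 are HtrA2 KO replicate 2, and the far left point at Tmem173 is HtrA2 KO replicate 3.

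The 2 signalling RNA receptors had the largest positive differences among the sensors. Ddx58, which encodes RIG-I, a receptor of short double-stranded RNA, had 3 probe sets. The brightest read 6.95, 6.89 and 7.25 in HtrA2 KO replicates 1 to 3, against 6.52, 6.56 and 6.71 in WT replicates 1 to 3. That difference was 0.43 ± 0.11, or 1.35-fold, with a 95% interval of 0.18 to 0.68 and an adjusted p of 0.0967 by limma. All 3 KO arrays were above all 3 WT arrays, and the lowest of them, replicate 2, still exceeded the highest WT array.

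A second probe set of Ddx58, far dimmer and at the 21.2 percentile of mean level, read 4.66, 4.83 and 4.79 in HtrA2 KO, against 4.47, 4.48 and 4.40 in WT. Its difference was 0.31 ± 0.08 (adjusted p = 0.0904 by limma), the smallest adjusted p of any sensor probe set. The third read 5.52, 4.98 and 5.49 in HtrA2 KO, against 4.91, 4.90 and 4.93 in WT. There HtrA2 KO replicate 2 was barely above WT while the other KO arrays stood well above it, and the difference was 0.41 ± 0.14 (adjusted p = 0.185 by limma). The 3 probe sets measure 1 gene and are not separate evidence of a group pattern.

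Ifih1 encodes MDA5, which binds long double-stranded RNA, and had 1 probe set. It read 7.59, 7.07 and 7.43 in HtrA2 KO, against 6.98, 6.84 and 6.84 in WT. The groups did not overlap, with KO replicate 2 again the lowest of its group. The difference of 0.48 ± 0.13 was the largest of the 20 by size, 1.39-fold, with a 95% interval of 0.17 to 0.79 and an adjusted p of 0.121 by limma.

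Whether these genes passed depended on that 1 array. Without HtrA2 KO replicate 2, Ifih1 rose by 0.63 ± 0.08 (adjusted p = 0.0125) and Ddx58 rose by 0.50 ± 0.11 and 0.59 ± 0.06 at the brightest and the third probe set (adjusted p = 0.0394 and 0.00727 by limma). The dim one differed by 0.28 ± 0.07 without passing (adjusted p = 0.0701). That made 3 of 20 probe sets and 2 of 10 genes, where 4.46% of all probe sets rose once the array was left out. The share of all genes was not counted in that setting. Calls over all probe sets, in either direction, went from 796 with all arrays to 3037 without KO replicate 2. No other sensor passed in that setting. Leaving out any other single array left 0 sensor probe sets past the test.

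The promoters of these 2 genes are shown because interferon-stimulated genes carry an element bound by interferon-activated factors, whose core was searched as GAAA, any 2 bases and GAAA again. The windows, from RefSeq on build GRCm38.p6, run from 250 bases before to 50 after the annotated start, 5′ to 3′ on the gene's strand, with matches on either strand in capitals; a match on the other strand reads TTTC, any 2 bases and TTTC, and overlapping matches were allowed. Ddx58 lies on the minus strand, at chr4:40239776-40240075, and Ifih1 on the minus strand, at chr2:62646206-62646505.
Ddx58: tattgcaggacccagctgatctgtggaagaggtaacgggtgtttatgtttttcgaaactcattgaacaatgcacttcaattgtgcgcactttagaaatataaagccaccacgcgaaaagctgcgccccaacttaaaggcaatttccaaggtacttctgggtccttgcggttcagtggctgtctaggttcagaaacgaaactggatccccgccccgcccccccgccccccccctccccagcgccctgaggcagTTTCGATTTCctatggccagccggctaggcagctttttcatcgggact
Ifih1: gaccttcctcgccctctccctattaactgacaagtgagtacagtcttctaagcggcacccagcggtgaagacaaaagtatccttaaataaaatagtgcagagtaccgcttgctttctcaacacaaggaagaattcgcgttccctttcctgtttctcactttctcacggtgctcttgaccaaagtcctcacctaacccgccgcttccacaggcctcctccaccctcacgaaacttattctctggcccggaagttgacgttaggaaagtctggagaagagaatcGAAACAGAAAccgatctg
The Ddx58 window held 1 match, on the other strand, from base 3 to base 12 after the start, and the Ifih1 window held 1 on the gene's strand, from base 33 to base 42. Windows were at hand for 7 of the 10 sensors, Ddx58, Ifih1, Mavs, Mb21d1, Tlr3, Tlr9 and Tbk1, and the other 5 of them held no match in these letters. Of all 32851 windows of the table, which cover 27025 genes, 3.44% held one, a share per window, while the sensors and lists are counted per gene.

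Among the interferon-stimulated genes described below, 11 of the 27 with a window held the core. Those past the test with a match were Ifit1 and Ifit3, and 30 bases around the first match in each are given for comparison, from chr19:34640775-34640804 and chr19:34583363-34583392 on the plus strand.
Ifit1: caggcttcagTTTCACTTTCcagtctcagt
Ifit3: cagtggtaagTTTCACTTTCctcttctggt
The share with a match was 2 of 6 among list genes past the test and 9 of 21 among the rest, a difference that was not tested. The motif search was made with the differences known and describes letters in a window, not binding.

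Dhx58 encodes LGP2, a relative of both that lacks the signalling domains and tunes their response, and none of its 3 probe sets passed the test. Its 3 probe sets were dim, between the 6.81 and 31.8 percentile of mean level. The brightest read 5.20, 5.42 and 5.14 in HtrA2 KO, against 5.18, 5.13 and 5.18 in WT. The next read 4.80, 5.16 and 4.78 in HtrA2 KO, against 4.84, 4.69 and 4.82 in WT. In both, HtrA2 KO replicate 2 was the highest array, and the other KO arrays lay among the WT values or just above them. Without that array their differences were 0.007 ± 0.067 and 0.006 ± 0.074, against 0.09 ± 0.09 and 0.13 ± 0.11 with it. The dimmest read 3.95, 3.78 and 3.76 in HtrA2 KO, against 3.75, 3.89 and 3.77 in WT. The 3 differences ran from 0.03 to 0.13 (adjusted p 0.649 to 0.912 by limma), and their 95% intervals together spanned -0.16 to 0.39. These overlap the intervals of Ddx58 and Ifih1, and the difference between the genes was not tested.

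Mavs, the mitochondrial adaptor of RIG-I and MDA5, showed no group difference at this precision. Its main probe set read 6.82, 7.09 and 7.04 in HtrA2 KO, against 7.01, 6.95 and 6.92 in WT, a difference of 0.03 ± 0.09 (95% interval -0.18 to 0.23). A second one, of the class whose probes may hybridise to other transcripts, read 6.61, 5.70 and 6.44 in HtrA2 KO, against 6.29, 6.62 and 6.36 in WT. Its difference of -0.17 ± 0.22 came from the low value of KO replicate 2, and was 0.10 ± 0.11 without that array.

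**Figure D2:**
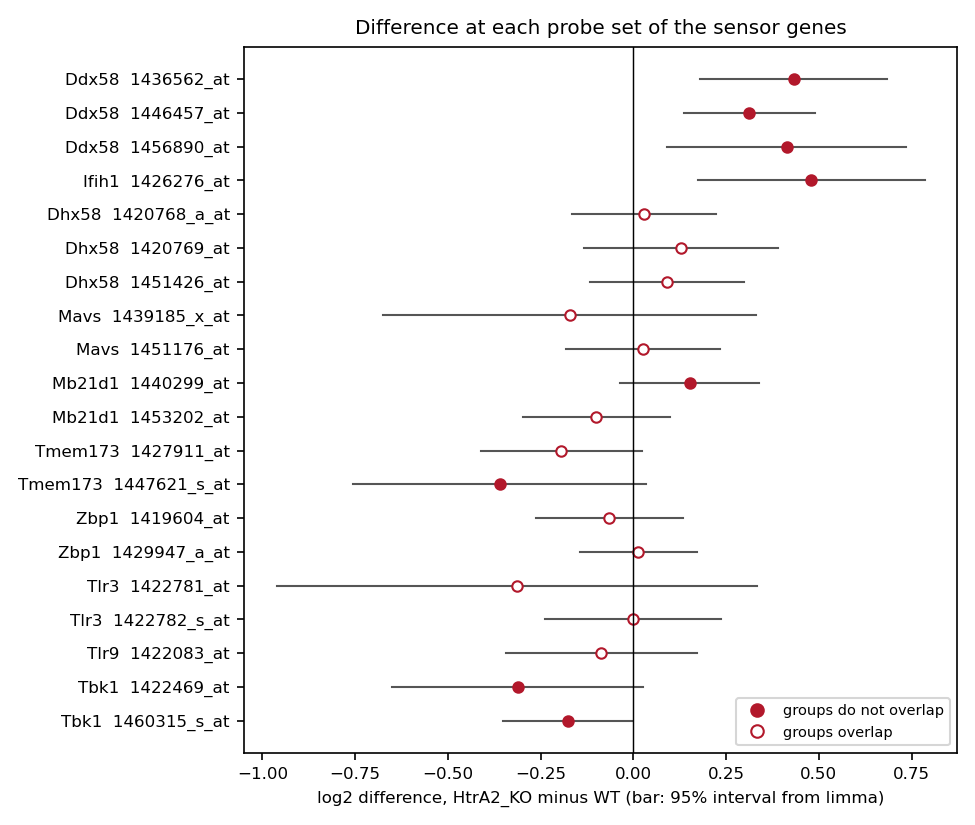
Log2 difference, HtrA2 KO minus WT, at each of the 20 probe sets with its 95% interval from limma; filled points mark probe sets at which the groups do not overlap. The intervals of Ddx58 and Ifih1 lie above 0, that of 1 Tbk1 probe set ends just below 0 at -0.003, and the widest, at Tlr3, runs from -0.96 to 0.33; none of the 20 passed after adjustment.

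In the DNA sensing branch no probe set had an unadjusted p under 0.05. Mb21d1 encodes cGAS, the enzyme that is switched on by double-stranded DNA, and its 2 probe sets went opposite ways. The first read 6.29, 6.39 and 6.29 in HtrA2 KO, against 6.08, 6.28 and 6.15 in WT. These groups did not overlap, but the gap between the lowest KO and the highest WT array was small beside the spread, and the difference was 0.15 ± 0.08 (adjusted p = 0.404 by limma). The second read 6.23, 6.15 and 6.16 in HtrA2 KO, against 6.20, 6.43 and 6.22 in WT, a difference of -0.10 ± 0.09 (adjusted p = 0.634).

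Tmem173 encodes STING, the endoplasmic reticulum adaptor that cGAS activates, and both of its probe sets had a lower mean in HtrA2 KO. The brighter read 6.95, 6.80 and 6.69 in HtrA2 KO, against 6.92, 6.98 and 7.12 in WT, with KO replicate 1 inside the WT range. The dimmer read 5.12, 5.12 and 4.52 in HtrA2 KO, against 5.48, 5.19 and 5.18 in WT. There all KO arrays were below all WT arrays, with replicate 3 the farthest. The differences were -0.19 ± 0.09 and -0.36 ± 0.17 (adjusted p = 0.353 and 0.342 by limma). The microglia list, a cell type in which STING is abundant in brain, had 3 of 16 measured markers that fell, Itgam, Tmem119 and P2ry12, and 0 that rose. Of all genes 1.05% fell and 1.39% rose, each at its brightest probe set as for the markers. In the microglia list 11 means were lower and 5 higher in HtrA2 KO. The 5 with a higher mean, named after their values were seen, were Trem2, C1qc, Ctss, Tyrobp and C1qb, with differences of 0.02 to 0.11 that did not pass the test. The list's mean level was 8.57 to 8.66 in HtrA2 KO and 8.78 to 8.96 in WT arrays. Neuron and oligodendrocyte lists were lower in the same arrays, as given below, and the part of any of them in the Tmem173 values was not tested.

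Zbp1, which binds left-handed nucleic acid and is itself strongly inducible by interferon, had small differences at both probe sets. One read 6.55, 6.68 and 6.81 in HtrA2 KO, against 6.80, 6.73 and 6.69 in WT, and the other 6.07, 5.98 and 6.00 in HtrA2 KO, against 6.00, 6.02 and 5.99 in WT. The groups overlapped in both. The differences were -0.06 ± 0.09 and 0.01 ± 0.07, and the 95% intervals together spanned -0.26 to 0.17.

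Of the endosomal receptors, Tlr3, which detects double-stranded RNA, had a steady probe set and a scattered one. The brighter read 7.92, 7.56 and 7.66 in HtrA2 KO, against 7.67, 7.70 and 7.77 in WT, a difference of -0.001 ± 0.10. The other read 6.61, 5.31 and 6.22 in HtrA2 KO, against 6.43, 6.36 and 6.29 in WT. KO replicate 2 was far below every other array there, and the difference of -0.31 ± 0.28 became 0.05 ± 0.12 without it. Tlr9, the receptor of unmethylated DNA, read 6.99, 7.11 and 6.97 in HtrA2 KO, against 6.94, 7.05 and 7.35 in WT. The KO values lay inside the WT range, with a difference of -0.09 ± 0.11 (adjusted p = 0.771 by limma).

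Tbk1, the kinase shared by the routes, was the brightest of the sensors, at the 81.8 and 90.9 percentile of mean level. One probe set read 9.31, 8.74 and 9.27 in HtrA2 KO, against 9.36, 9.46 and 9.44 in WT, and the other 10.38, 10.23 and 10.31 in HtrA2 KO, against 10.45, 10.45 and 10.55 in WT. All KO arrays lay below all WT arrays at both, and KO replicate 2 was the lowest in each. The differences were -0.31 ± 0.15 and -0.18 ± 0.08 (adjusted p = 0.338 and 0.287 by limma), and -0.13 ± 0.07 and -0.14 ± 0.07 without KO replicate 2.

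The genes that interferon induces were set beside the sensors at 1 probe set per gene, the brightest; at that probe set 1.39% of all genes rose and 1.05% fell, with a median difference of 0.02, and at an unadjusted p under 0.05 11.3% were higher and 9.19% lower. Of 36 measured interferon-stimulated genes 8 rose and 0 fell, the means of 33 were higher in HtrA2 KO, and the median difference was 0.39. Lgals3bp, a secreted galectin ligand, rose by 0.78 ± 0.10, Ifit3 and Xaf1 by 1.51 ± 0.21 and 0.92 ± 0.13, and the transcription factor Irf7 by 0.52 ± 0.08 (adjusted p 0.0172 to 0.0264 by limma). For Ifit3, an interferon-induced antiviral protein, the level was 9.13, 8.22 and 8.90 in HtrA2 KO, against 7.35, 7.31 and 7.05 in WT. KO replicate 2 was the lowest of its group in all 8 that rose and in 32 of the 36 measured. How often it was the lowest KO array over all probe sets was not counted. The count was 19 without that array, 3 without KO replicate 1, and 0 without KO replicate 3 or any 1 of the WT arrays. Calls over all probe sets moved likewise, to 3037 without KO replicate 2, 377 without KO replicate 1, and 65 to 107 in the other omissions, against 796 with all arrays.

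**Figure D3:**
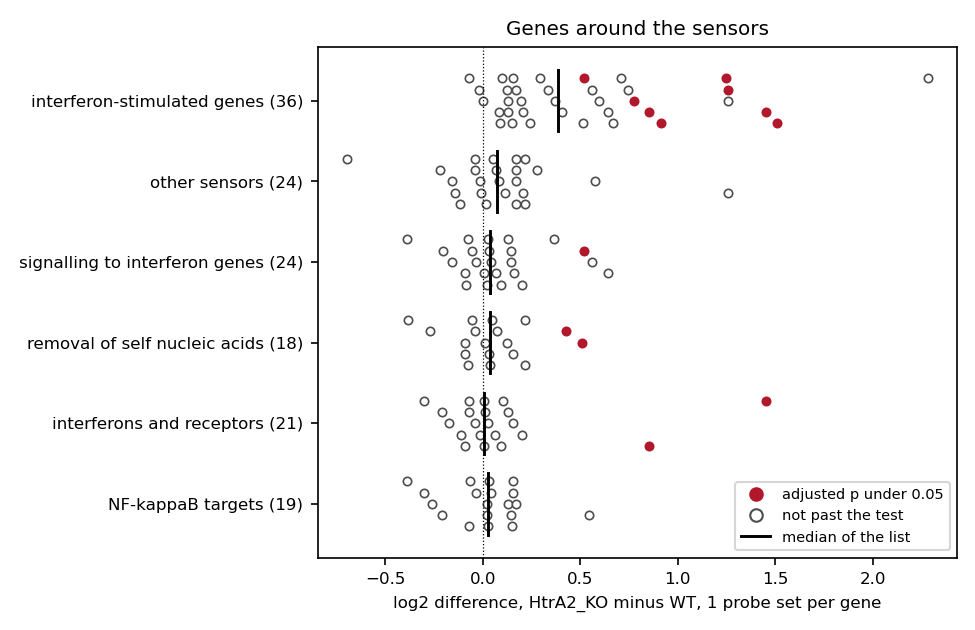
Log2 difference, HtrA2 KO minus WT, of each measured gene of 6 lists around the sensors, 1 point per gene, with the number measured in parentheses; filled points passed the test and the bar is the median of the list. The interferon-stimulated genes have a median of 0.39 and 8 filled points, while the medians of the other 5 lists lie between 0.01 and 0.07.

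Other sensors of foreign nucleic acid had 0 of 24 measured genes past the test by limma, with 5 higher and 1 lower at an unadjusted p under 0.05 (11.3% and 9.19% of all genes), and a median of 0.07. Oasl2, an interferon-inducible relative of the oligoadenylate synthetases, differed by 1.26 ± 0.25 (adjusted p = 0.0516), and Zc3hav1, which encodes the antiviral zinc finger protein ZAP, by 0.57 ± 0.14 (adjusted p = 0.0855). With Oasl2 the HtrA2 KO arrays read 7.55, 6.66 and 7.53, against 6.33, 5.83 and 5.79 in WT, without overlap. Without KO replicate 2 the list had 2 genes past the test.

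Of the genes that carry the signal from the sensors to interferon genes, 1 of 24 rose, Irf7, and 0 fell, with a median of 0.04. Tbkbp1, which binds TBK1, differed by 0.56 ± 0.13, and Trim25, a ubiquitin ligase that acts on RIG-I and is itself interferon-inducible, by 0.64 ± 0.16 (adjusted p = 0.0755 and 0.0886 by limma). Tnfaip3, the inhibitor A20, differed by -0.39 ± 0.12. The count was 4 without KO replicate 2 and 0 without any 1 of the other arrays.

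No interferon gene passed the test. The 7 ligand genes measured, Ifna1, Ifna2, Ifna4, Ifna5, Ifna11, Ifnb1 and Ifng, had mean levels of 3.83 to 6.09 in HtrA2 KO and 3.77 to 6.20 in WT, below the array medians, and this split of the list was made after its values were seen. Their differences ran from -0.21 to 0.10, with 0 past the test by limma and 1, Ifna11, at an unadjusted p under 0.05, and lower in HtrA2 KO. Among 14 receptor and signalling genes of the same list 2 rose, Irf9, a subunit of the factor that interferon activates, by 0.85 ± 0.15, and Usp18, a feedback inhibitor of the receptor, by 1.45 ± 0.27 (adjusted p = 0.0372 and 0.0432). The receptor subunit Ifngr2 differed by -0.30 ± 0.10. Both genes that rose are also in the interferon-stimulated list. Over the whole list 4 genes passed without KO replicate 2, of which 2 were higher and 2 lower in HtrA2 KO. The count was 0 when any 1 of the other arrays was left out.

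Genes that remove a cell's own nucleic acids were mixed. Of 18 measured 2 rose and 0 fell, with a median of 0.03. Both are subunits of RNase H2, which cuts the RNA of RNA-DNA hybrids. Rnaseh2b read 9.23, 9.20 and 9.19 in HtrA2 KO, against 8.69, 8.63 and 8.77 in WT, and rose by 0.51 ± 0.07 (adjusted p = 0.0200 by limma). Rnaseh2a read 8.52, 8.53 and 8.60 in HtrA2 KO, against 8.07, 8.21 and 8.10 in WT, and rose by 0.42 ± 0.07 (adjusted p = 0.0365). In both, KO replicate 2 was close to the other KO arrays. The third subunit, Rnaseh2c, differed by -0.38 ± 0.10 at a probe set that may cross-hybridise (adjusted p = 0.0960), and Mgme1, a mitochondrial DNA exonuclease, by -0.27 ± 0.08. Without KO replicate 2 the list had 4 genes past the test, 3 higher and 1 lower in HtrA2 KO, and without any 1 of the others 0. Targets of NF-kappaB, the other branch below these sensors, had 0 of 19 past the test by limma, with 1 higher and 3 lower at an unadjusted p under 0.05 (11.3% and 9.19% of all genes), a median of 0.02, and Tnfaip3 and Relb at -0.39 ± 0.12 and -0.30 ± 0.10.

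Ddx58 and Ifih1 were set beside the interferon-stimulated list in each array. Relative to the WT mean, the average of these 2 genes, picked after their values were seen, was 0.53, 0.24 and 0.60 in HtrA2 KO replicates 1 to 3, against -0.04 to 0.03 in the WT arrays. The interferon-stimulated genes, which do not contain them, averaged 0.75, 0.27 and 0.62 in HtrA2 KO, against -0.06 to 0.08 in WT. The other 8 sensor genes averaged -0.03, -0.01 and -0.06 in HtrA2 KO, against -0.04 to 0.05 in WT, within or just below the WT range. Replicate 2 had the smallest shift of the KO arrays in each of these groups, the other sensors included.

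Cell type marker lists differed between the groups in both directions. The 15 meningeal and mural markers, of which 0 passed and 13 means were higher in HtrA2 KO, averaged 0.33, 0.05 and 0.53 from the WT mean in HtrA2 KO, against -0.08 to 0.12 in WT, with mean levels of 8.90 to 9.38 and 8.77 to 8.97. The 12 endothelial markers averaged 0.15, 0.02 and 0.16 in HtrA2 KO, against -0.06 to 0.03 in WT, with 0 past the test. The 11 markers of border macrophages and monocytes averaged 0.06, -0.10 and 0.24 in HtrA2 KO, against -0.02 to 0.01 in WT, with 0 past the test. KO replicate 2 was the lowest KO array in each of these 3 lists. Over the 103 markers of all the cell type lists, 1 rose and 12 fell with all arrays. Without KO replicate 2, 10 rose and 16 fell, and these counts were not split by list. Over all probe sets 796 were called with all arrays, 398 of them higher, and 3037 without KO replicate 2, 2010 of them higher.

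The oligodendrocyte and neuron lists lay lower in HtrA2 KO. The counts that follow stand beside 1.05% of all genes that fell and 1.39% that rose at the brightest probe set. The 12 oligodendrocyte markers averaged -0.28, -0.33 and -0.25 in HtrA2 KO, against -0.10 to 0.08 in WT, and 2 fell, Ugt8a by 0.60 ± 0.08 and Olig2 by 0.69 ± 0.12, with 0 rising. The 14 neuron markers averaged -0.17, -0.21 and -0.24 in HtrA2 KO, against -0.01 to 0.02 in WT, and 3 fell, Nefh, Nefm and Neurod6, with 0 rising. In both lists every KO array was below every WT array. Of 14 astrocyte markers 3 fell, Acsbg1, Aqp4 and S100b, and 1 rose, Gfap, by 0.63 ± 0.09 (adjusted p = 0.0228 by limma), and the list averaged -0.13, -0.20 and 0.01 in HtrA2 KO, against -0.02 to 0.02 in WT. Of 9 markers of lymphocytes and blood 1 fell, Alas2, by 0.87 ± 0.16. The part of the marker lists in the sensor values was not tested.

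**Figure D4:**
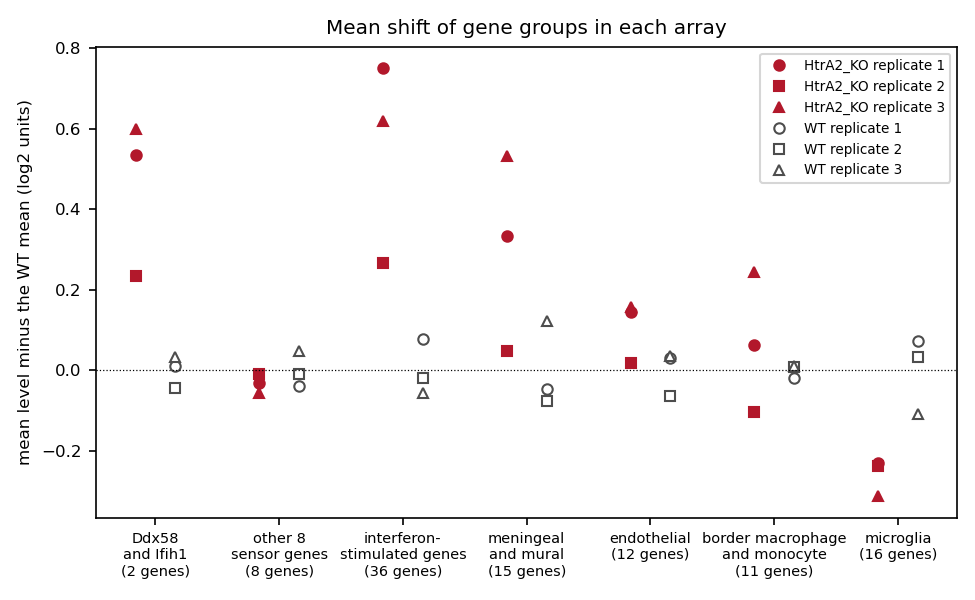
Mean level of each gene group in each array, as log2 units from the WT mean, 1 probe set per gene; filled symbols are HtrA2 KO arrays, open symbols WT arrays, and the shape gives the replicate number. Ddx58 and Ifih1 lie at 0.24 to 0.60 and the interferon-stimulated genes at 0.27 to 0.75 in HtrA2 KO, the other 8 sensors stay near 0, and HtrA2 KO replicate 2 is the lowest KO array in the first, the third and the meningeal, endothelial and macrophage groups.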

How the data were processed

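Total RNA of cortex was hybridised as biotin-labelled RNA to Affymetrix arrays, 1 per sample, per the labels' protocols. The deposited values are log2 values from RMA, which corrects background, quantile normalizes and summarizes each probe set; RMA is given by the submitters' processing notes with no version, and base 2 was taken from the range of the values. RMA hides a shift shared by most genes and compresses differences of dim probe sets, and 3 arrays per group limit the precision.

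From these values 64 control probe sets of 45101 were left out. The platform annotation gave 34945 probe sets 1 symbol, 932 several (not named) and 9160 none. HtrA2 KO was compared with WT by limma 3.58.1 in R 4.3.3 (lmFit, eBayes, two-sided, group as the only term), with no brightness filter and Benjamini-Hochberg adjustment over all probe sets, at 0.05. The fit was tested on simulated data.

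The 10 genes and all lists were chosen with earlier results of these data known. Every sensor probe set is given; from each list up to 4 genes by smallest p were named (2 where none passed), and markers only where they passed or as counts. Listed genes with no probe set of their own here were not analysed. Alternatives were a dim filter (above the 40th percentile on at least 3 arrays), robust limma-trend, quantile normalization, median centring, array weights, a replicate block, the Y-linked level as covariate, 1 probe set per gene, other thresholds, and leaving out arrays.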

Additional observations from a re-analysis of the deposited data

How the results depend on the processing

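Ddx58 and Ifih1 kept a positive difference in every alternative run, which the lack of overlap fixes in advance where an array is left out. Leaving out 1 array in turn gave 0 to 3 sensor probe sets and 0 to 2 sensor genes past the test, 0 to 29 pathway genes (10 with all arrays), 0 to 26 cell type markers (13), and for the lists 0 to 19 interferon-stimulated, 0 to 4 signalling, 0 to 4 removal, 0 to 4 interferon and receptor, 0 to 2 other sensor and 0 to 1 NF-kappaB genes. The highest of each came without HtrA2 KO replicate 2; without KO replicate 1 there were 3 pathway genes and 5 markers, and without any 1 of the others 0. Sensor counts otherwise moved at an adjusted p under 0.10 (2 probe sets, 1 gene), with array weights (4 and 2) and without both arrays numbered 2 (1 and 1), all higher in HtrA2 KO. In these settings 2.25%, 5.4% and 0.544% of all probe sets were called higher, against 0.884% as reported.

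Pathway genes and markers past the test numbered 20 and 17 at 0.10, 0 and 0 at 0.01, 30 and 33 with array weights, 17 and 20 with robust limma-trend, 6 and 6 with the Y-linked covariate, and 13 and 1 without both arrays numbered 2. Interferon-stimulated genes numbered 15, 0, 19, 14, 5 and 11 in those settings. Over all probe sets 2035, 79, 4205, 1770, 445 and 314 were called in the same order, against 796 as reported. With array weights the pathway genes were 26 higher and 4 lower in HtrA2 KO, and the markers 12 higher and 21 lower. Other sensors were 1 with limma-trend, quantile normalization, the dim filter or 1 probe set per gene, 2 at 0.10 or without both arrays numbered 2, and 3 with weights. Signalling genes were 3 at 0.10, 4 with weights, 2 with limma-trend or without both arrays numbered 2, and 0 at 0.01 or with the covariate. Removal genes were 4 with weights, 1 with the covariate, and 0 at 0.01 or without both arrays numbered 2. Interferons and receptors were 4 with weights and 0 at 0.01 or with the covariate; NF-kappaB targets were 1 with weights. The cause of these shifts was not tested.

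The labels do not say whether the replicate numbers pair the samples. Deviations of same-numbered arrays from their group means correlated at -0.20, -0.04 and -0.17. The highest correlation, 0.22, was between KO replicate 3 and WT replicate 1, the arrays with high Xist. Such deviations sum to 0 within each group and cannot decide whether samples were paired. With the replicate block 0 sensor probe sets and 0 sensor genes, 2 pathway genes, both interferon-stimulated, 0 markers and 0 genes of the signalling, removal, interferon and receptor, other sensor and NF-kappaB lists passed, of 154 in all.

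Signs turned only at sensor probe sets with no call. Without both arrays numbered 2 the differences were -0.040 and -0.012 for Dhx58, 0.20 and -0.034 for Mavs, and 0.055 and 0.071 for Tlr3. They were -0.010 for Mavs and 0.060 for Tlr3 with array weights, and 0.0097 and 0.0060 for Tlr3 with quantile normalization and median centring. Leaving out 1 array gave -0.032 to 0.069 for the dimmest Dhx58 probe set, -0.35 to 0.10 and -0.029 to 0.11 for Mavs, -0.014 to 0.034 for Zbp1, -0.60 to 0.053 and -0.11 to 0.077 for Tlr3 and -0.17 to 0.029 for Tlr9. The dim filter kept 14 of the 20 sensor probe sets.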

Other observations

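The arrays came from mice of both sexes by their sex-linked transcripts. Xist, expressed from the inactive X chromosome, read 6.16, 7.003 and 11.01 in HtrA2 KO replicates 1 to 3, against 10.90, 6.34 and 6.47 in WT replicates 1 to 3. The mean of the Y-linked genes Eif2s3y, Kdm5d and Uty read 7.96, 7.76 and 4.02 in HtrA2 KO, against 4.03, 7.74 and 7.73 in WT. Each group thus held 1 array with high Xist and low Y-linked levels, and the sensor counts above were also made with this Y-linked mean as covariate.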
